A study of Homo sapiens with 2 samples.

Results

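The genes described here are those that were between 1.5-fold and 2-fold higher in Huh-7 cells after interferon-alpha, below the strongly induced antiviral genes. Huh-7 is a human hepatoma line. After 24 hours of incubation 1 culture was given medium with recombinant human IFN-alpha 2b (100 U/mL) and kept in it for 6 hours, while the other had its medium exchanged without it. The time at which that control was harvested is not given in the sources used here. RNA of each was measured on 1 Affymetrix expression array. In RNA from a whole culture, more responding cells and more transcript per cell cannot be told apart. Without replicates neither an error nor a test can be given, and every ratio below describes these 2 arrays only. Members were chosen by the ratio itself: for each gene named by a probe set (the group of probes that reads 1 transcript) the brightest probe set was taken, intensities below the median of all values (48.46, called the floor) were raised to it, and genes with a ratio of at least 1.5 and under 2 were kept. Of 13269 genes above the floor on at least 1 array, 43 (0.324%) met this rule. Of the 43, 12 were set aside by name (ADAR, APOL2, B2M, BST2, CASP8, HLA-C, IRF1, OASL, PSME1, TAPBP, TRIM21 and TRIM6), which left 31 members, or 0.234%. Because the rule used these ratios, they are given as a description.

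Type I interferon binds a cell surface receptor whose kinases activate a transcription factor complex that contains IRF9. The complex enters the nucleus and binds the interferon-stimulated response element (ISRE) in the promoters of interferon-stimulated genes. Genes with such elements differ widely in how strongly they respond and in how much transcript is present beforehand. Besides direct antiviral effectors, interferon-stimulated genes encode signalling adaptors, ubiquitin ligases, trafficking proteins, metabolic enzymes and non-coding RNAs.

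The 31 members had a median ratio of 1.66-fold (log2 0.73), where the median over all 13269 genes was a log2 ratio of 0.03. Their untreated intensities ran from 32.2 to 2636 with a median of 203, close to the 216 of all counted genes. The 57 genes that were at least 2-fold higher (0.43% of those counted) had a median untreated intensity of 83.0. On the untreated array 5 of the 31 members lay below the floor, and for those the ratio is a lower bound. By RefSeq annotation 27 members encode proteins, 3 are long non-coding RNAs (MALAT1, FTX and LOC100190986) and DUXAP10 is a transcribed pseudogene. Of the 31, 16 were in a list of interferon-stimulated genes and 15 were not, where 108 of the 13269 counted genes were in it. The list was chosen with earlier results of these data known, so this count is no independent evidence. The members on that list were brighter, with a median untreated intensity of 236 against 113 for the others.

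**Figure D1:**
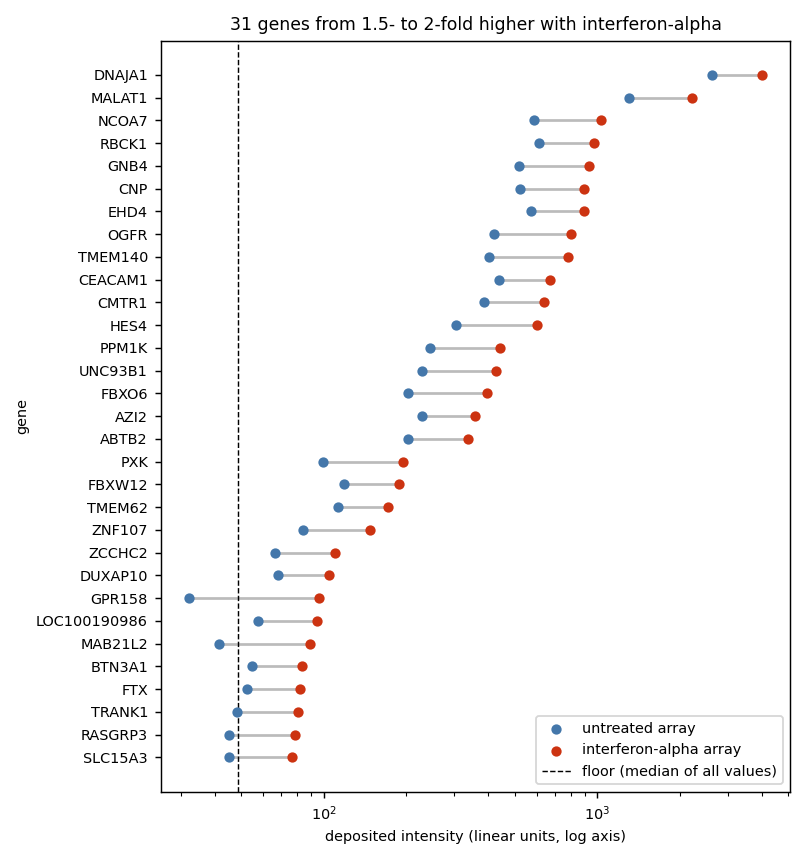
Deposited intensity of each of the 31 members (log axis, linear units), with the untreated array in blue and the interferon-alpha array in red, 1 array each; the dashed line is the floor of 48.46. DNAJA1 and MALAT1 are the brightest members, and GPR158, MAB21L2, TRANK1, RASGRP3 and SLC15A3 start below the floor.

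Promoter sequence is a property that the membership rule did not use. RefSeq promoter windows (GRCh38.p14, 250 bases before and 50 after each annotated start, both strands searched) were matched by symbol to 25 of the 31 members. The entries not found were UNC93B1, MAB21L2, LOC100190986, SLC15A3, DUXAP10 and BTN3A1. The ISRE core, searched as GAAA, any 2 bases and GAAA again, was present in 5 of the 25 members (20%). It was present in 30 of 48 genes at least 2-fold higher (62.5%), in 9 of 143 weaker responders, genes with a log2 ratio from 0.32 to under 0.58 (6.29%) and in 389 of all 10683 counted genes with a window (3.64%). Over all 27305 genes of the promoter table the share was 4.38%. The members exclude 12 genes set aside by name, whereas the stronger and weaker groups exclude none. Over all 43 genes of the range, 11 of the 35 with a window held the core (31.4%). Both shares lay between those of the stronger and the weaker responders, a description for which no test was made. The members with a match were TMEM140, OGFR, NCOA7, CEACAM1 and RBCK1. Their windows are shown from 130 bases before the start to 20 bases after it, in gene direction, because they hold the matches; capitals mark the ISRE core.
TMEM140, chr7:135147942-135148091, plus strand: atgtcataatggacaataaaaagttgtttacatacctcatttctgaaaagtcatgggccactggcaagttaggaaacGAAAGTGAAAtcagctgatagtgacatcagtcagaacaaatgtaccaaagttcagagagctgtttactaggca
OGFR, chr20:62804705-62804854, plus strand: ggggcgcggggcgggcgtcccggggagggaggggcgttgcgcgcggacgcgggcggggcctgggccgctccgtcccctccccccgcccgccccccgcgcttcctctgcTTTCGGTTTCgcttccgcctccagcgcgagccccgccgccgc
NCOA7, chr6:125919125-125919274, plus strand: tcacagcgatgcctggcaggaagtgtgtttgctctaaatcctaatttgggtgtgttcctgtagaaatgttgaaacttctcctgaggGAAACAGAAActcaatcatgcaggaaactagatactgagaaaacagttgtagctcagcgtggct
CEACAM1, chr19:42528462-42528611, minus strand: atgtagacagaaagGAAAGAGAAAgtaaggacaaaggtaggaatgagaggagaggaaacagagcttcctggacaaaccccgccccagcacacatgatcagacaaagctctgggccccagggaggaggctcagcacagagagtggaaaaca
RBCK1, chr20:408169-408318, plus strand: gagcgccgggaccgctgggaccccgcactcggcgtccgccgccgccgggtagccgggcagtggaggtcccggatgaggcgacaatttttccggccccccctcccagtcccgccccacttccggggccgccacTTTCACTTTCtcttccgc
The match began 53 bases before the start in TMEM140, 22 before it in OGFR, 44 before it in NCOA7 and 116 before it in CEACAM1. In RBCK1 it began 2 bases past the start and, as in OGFR, read on the opposite strand. NCOA7 has 3 annotated starts in the table, and only the window of the one shown held the core. TMEM140, OGFR, NCOA7 and RBCK1 are on the interferon-stimulated list, CEACAM1 is not.

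Other motifs did not follow the same order. The gamma-activated site (GAS), a further element of interferon signalling, was searched as TTCNNNGAA and was found in 0 of the 25 members, but in 3 of 35 genes (8.57%) before the exclusions. It was found in 15 of 48 genes at least 2-fold higher (31.3%), in 18 of 143 weaker responders (12.6%) and in 8.45% of counted genes. ISRE and GAS patterns can share bases, and in 4 of the 16 windows of the 2-fold genes with a GAS match they did. The GC box GGGCGG occurred in 20 of 25 members (80.0%) and in 74.5% of counted genes, and the TATA box TATAAA in 2 of 25 (8%) and 8.72%. Over all windows of the table the shares were 7.66% for GAS, 45.0% for the GC box and 11.5% for the TATA box. A missing match says only that these letters are absent from the window searched.

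**Figure D2:**
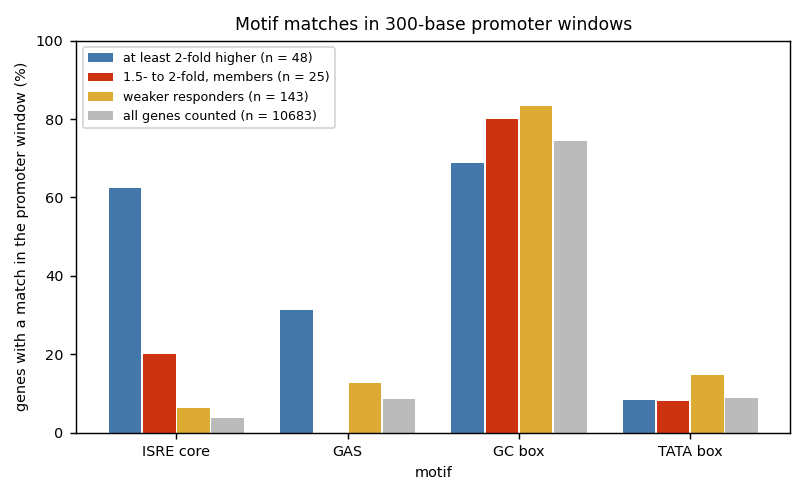
Share of genes (%) with at least 1 match of each motif in a 300-base promoter window, for genes at least 2-fold higher (n = 48), the members (n = 25), weaker responders with log2 ratios from 0.32 to under 0.58 (n = 143) and all counted genes (n = 10683). For the ISRE core the shares are 62.5%, 20%, 6.29% and 3.64% in that order, and for the GC box they lie between 68.8% and 83.2%.

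Genes of innate immune signalling and of ubiquitin transfer were among the members. UNC93B1, which carries nucleic acid-sensing Toll-like receptors from the endoplasmic reticulum to endosomes, had an intensity of 229 on the untreated and 426 on the interferon array, or 1.86-fold. AZI2, also called NAP1, an adaptor of the kinase TBK1, had 229 and 358, or 1.57-fold. RBCK1, the HOIL-1 subunit of the linear ubiquitin chain assembly complex (LUBAC), had 612 and 971, or 1.59-fold. The other LUBAC subunits had log2 ratios below 0, of -0.17 for RNF31 and -0.13 for SHARPIN. FBXO6, the F-box protein of a ubiquitin ligase that recognises glycoproteins, had 203 and 396, or 1.96-fold. FBXW12, another F-box protein, had 118 and 189, or 1.60-fold. In the fixed list of ubiquitin and autophagy genes, 5 of 18 counted genes reached 2-fold (UBE2L6, USP18, HERC5, HERC6 and DTX3L) and 2 were from 1.5-fold to under 2-fold higher, the members RBCK1 and FBXO6. The list's median log2 ratio was 0.30. In the fixed list of cell death genes, which does not hold CASP8 (set aside by name above), 11 of 19 genes were counted. None of the 11 was 1.5-fold higher, against 0.754% of all counted genes that were. Their highest log2 ratio was 0.45 and their median was 0.15.

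Enzymes that act on RNA, nucleotides or phosphoproteins were among the members, and they are given here with ZCCHC2 and PXK. CMTR1, which methylates the ribose next to the cap of messenger RNA, had 386 untreated and 639.6 with interferon, or 1.66-fold. ZCCHC2, a zinc-finger protein, had 66.2 and 109.8, also 1.66-fold. CNP, the cyclic nucleotide phosphodiesterase best known from myelin, had 522 and 897, or 1.72-fold. PPM1K, the mitochondrial phosphatase that activates breakdown of branched-chain amino acids, had 244 and 441, or 1.81-fold. PXK, a kinase-like protein with a lipid-binding PX domain, had 99.3 and 195, or 1.96-fold. CMTR1, CNP and PPM1K exceeded 4 times the floor on both arrays, where the spread of all genes between the arrays was narrower, and ZCCHC2 and PXK did not. Among 13 counted genes of RNA processing and translation in the fixed list, PNPT1 was at least 2-fold higher, CMTR1 and ZCCHC2 lay in the range described here, DCP1A (1.36-fold) and DDX3X (1.30-fold) were below it and the other 8 had log2 ratios within 0.32 of 0, with a list median of 0.14.

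Regulators of transcription were represented by 3 members. HES4, a basic helix-loop-helix repressor, had 304 untreated and 602 with interferon, or 1.98-fold. NCOA7 was named as a nuclear receptor coactivator and has a short isoform that interferon is known to induce from an internal start. It had 585 and 1031, or 1.76-fold. ZNF107, a zinc-finger protein of a large family with similar sequences, had 84.3 and 148, or 1.76-fold. In the fixed list of chromatin and transcription factor genes, 0 of 16 counted genes reached 2-fold. Next below the 3 members were ELF1 (1.46-fold) and IRF2 (1.40-fold), and the list median was 0.17.

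Membrane, transport and surface proteins made up a larger group, and OGFR is given with them without being assigned to it. TMEM140, a transmembrane protein, had 401 untreated and 784 with interferon, or 1.95-fold. OGFR, the opioid growth factor receptor, had 420.2 and 803, or 1.91-fold. EHD4, an ATPase of endocytic recycling, had 571 and 893, or 1.57-fold. CEACAM1, an adhesion molecule of epithelial and immune cells, had 437 and 673, or 1.54-fold. TMEM62, another transmembrane protein, had 113 and 172, or 1.53-fold. BTN3A1, a butyrophilin through which gamma-delta T cells sense phosphoantigens, had 54.7 and 83.1, or 1.52-fold. SLC15A3, a transporter of histidine and peptides in lysosomes, had 45.2 (under the floor) and 76.7, a ratio of at least 1.58-fold. BTN3A1, SLC15A3 and TMEM62 stayed under 4 times the floor on both arrays, and the other 4 were at least 4 times as bright as the floor on both arrays. Of the 13 counted membrane traffic genes of the fixed list EHD4 was the only member, 4 others (CHMP5, ANKFY1, NAPA and SHISA5) were weaker responders as defined above, and the list median was 0.24.

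The remaining protein-coding members were of mixed function. GNB4, a beta subunit of heterotrimeric G proteins, had 518 untreated and 936 with interferon, or 1.81-fold. RASGRP3, an exchange factor that activates Ras and Rap proteins, had 45.1 (under the floor) and 78.2, a ratio of at least 1.61-fold. ABTB2, a protein with ankyrin repeats and a BTB domain, had 203 and 337, or 1.66-fold. TRANK1, a large protein with ankyrin repeats, had 48.1 (just under the floor) and 80.6, a ratio of at least 1.66-fold. DNAJA1, a J-domain co-chaperone of heat-shock proteins, was the brightest member, with 2636 and 3996, or 1.52-fold. GPR158, a receptor studied in the nervous system, had 32.2 (under the floor) and 96.2, a ratio of at least 1.99-fold. MAB21L2, a gene of eye development, had 41.6 (under the floor) and 89.0, a ratio of at least 1.84-fold. GPR158, MAB21L2, RASGRP3 and TRANK1 stayed under 2 times the floor on both arrays.

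Transcripts without a protein product made up 4 of the 31 members. MALAT1, an abundant nuclear long non-coding RNA, had 1302 untreated and 2221 with interferon, or 1.71-fold. All 12 of its probe sets were above the floor and all were higher on the interferon array, with log2 ratios from 0.37 to 0.84, a median of 0.64 and 7 of 12 at 1.5-fold or more. Most of the 12 are of types that can read more than 1 transcript. Without those types the log2 ratio of MALAT1 was 0.49, below the range. FTX, a non-coding RNA of the X-inactivation centre, had 52.6 and 82.1, or 1.56-fold. The long non-coding RNA LOC100190986 had 57.7 and 94.6, or 1.64-fold. DUXAP10 had 67.7 and 104, or 1.54-fold, and as a pseudogene it shares sequence with its relatives. Apart from MALAT1 these signals stayed under 4 times the floor on both arrays.

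The members' brightness was close to that of all counted genes, and a part of them lay near the floor. In 18 of the 31 the brighter array exceeded 4 times the floor (193.8), in 5 it lay between 2 and 4 times and in 8 it was under 2 times the floor (96.9). Before the exclusions the figures were 25, 8 and 10 of 43, and over all counted genes 7232, 2835 and 3202 of 13269. Over 4 times the floor were thus 58.1% of the members and 54.5% of all counted genes. In the opposite direction 11 genes (0.0829% of those counted) were 1.5-fold to under 2-fold lower. Of these 7 were under 2 times the floor, 3 between and 1 above 4 times. For genes with both values above the floor, log2 ratios (central 95%) ran from -0.37 to 0.27 under 2 times the floor and from -0.16 to 0.30 over 4 times it. The 8 dim members were GPR158, MAB21L2, TRANK1, LOC100190986, RASGRP3, SLC15A3, FTX and BTN3A1, and 3 of the 8 are on the interferon-stimulated list.

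**Figure D3:**
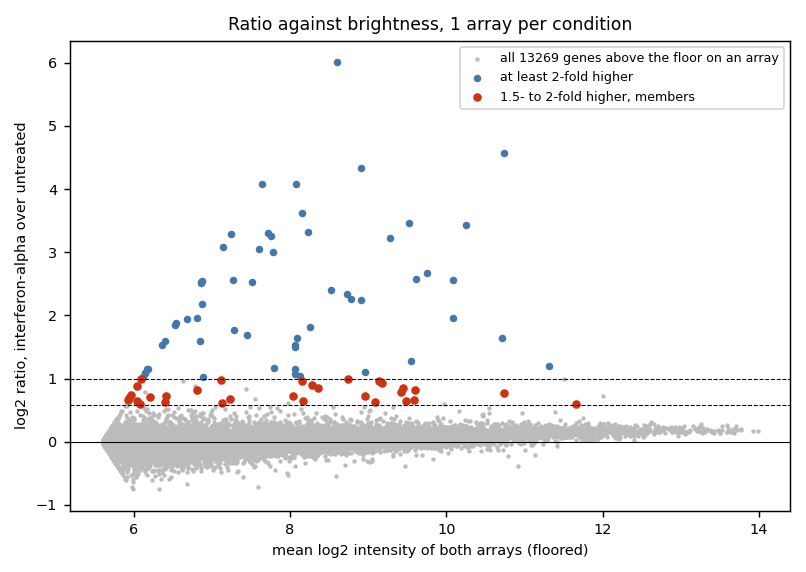
Log2 ratio of the interferon-alpha over the untreated array (1 array each) against the mean log2 intensity of both, values below the floor raised to it, for 13269 genes in grey, genes at least 2-fold higher in blue and the 31 members in red; dashed lines are at 1.5-fold and 2-fold. The members span the brightness range from next to the floor up to DNAJA1, and the grey cloud widens towards the floor.

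Other probe sets of the same genes gave mostly smaller ratios. They read the same RNA on the same arrays and are not replicates. Of the 31 members 24 had several probe sets, with 60 besides those used. The floor was exceeded by 42 of the 60. Among the 42, 1 was at least 2-fold higher, 14 were 1.5-fold to under 2-fold higher, 24 were higher by less and 3 were at a log2 ratio of 0 or below. These 42 belonged to 17 members, and MALAT1 alone held 11 of them. Counted by gene, 8 of the 17 members had a further probe set at 1.5-fold or more. Over all single-gene probe sets above the floor, 0.754% were at least 1.5-fold higher and 41.4% were at 0 or below. The 42 had a median log2 ratio of 0.43, against 0.03 for all single-gene probe sets above the floor, and ran from -0.40 to 1.12. The rule took the brightest probe set over both arrays, a choice that favours one with a high interferon value.

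Individual genes differed in how far their probe sets went together. The 4 probe sets of OGFR had log2 ratios of 0.93, 0.69, 0.84 and 1.12. The brighter probe sets of PPM1K had 0.86 and 0.89, and both of DNAJA1 had 0.60. In 3 members every other probe set above the floor was 1.5-fold or more higher, and these were OGFR, PPM1K and DNAJA1. The probe sets of CEACAM1 ran from 0.16 to 0.62, those of EHD4 from 0.36 to 0.71 and those of AZI2 from 0.26 to 0.78. In several members the used probe set stood well above the others that passed the floor. UNC93B1 had 0.90 against 0.34 and 0.14, and ZCCHC2 had 0.73 against 0.32 and 0.13. ABTB2 had 0.73 against 0.08, and NCOA7 had 0.82 against 0.05, from a probe set near the floor. With the median over probe sets UNC93B1, ZCCHC2, ABTB2 and NCOA7 had 0.34, 0.32, 0.40 and 0.43, all below the range. PXK had 0.97 against 0.56 and 0.58, and LOC100190986 had 0.71 against 0.37. Their medians over probe sets were 0.582 and 0.542, also below the range, whose lower bound is 0.585. CNP had a second probe set with 77.0 untreated and 58.3 with interferon, a log2 ratio of -0.40. ZNF107 had others at 0.00 and -0.09, the first with 91.0 on both arrays. For CNP and ZNF107 the probe sets above the floor therefore lay on both sides of 0 or at it. In 14 members no other probe set was above the floor, among them HES4, FBXO6, TMEM140 and CMTR1, each with 1 probe set.

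**Figure D4:**
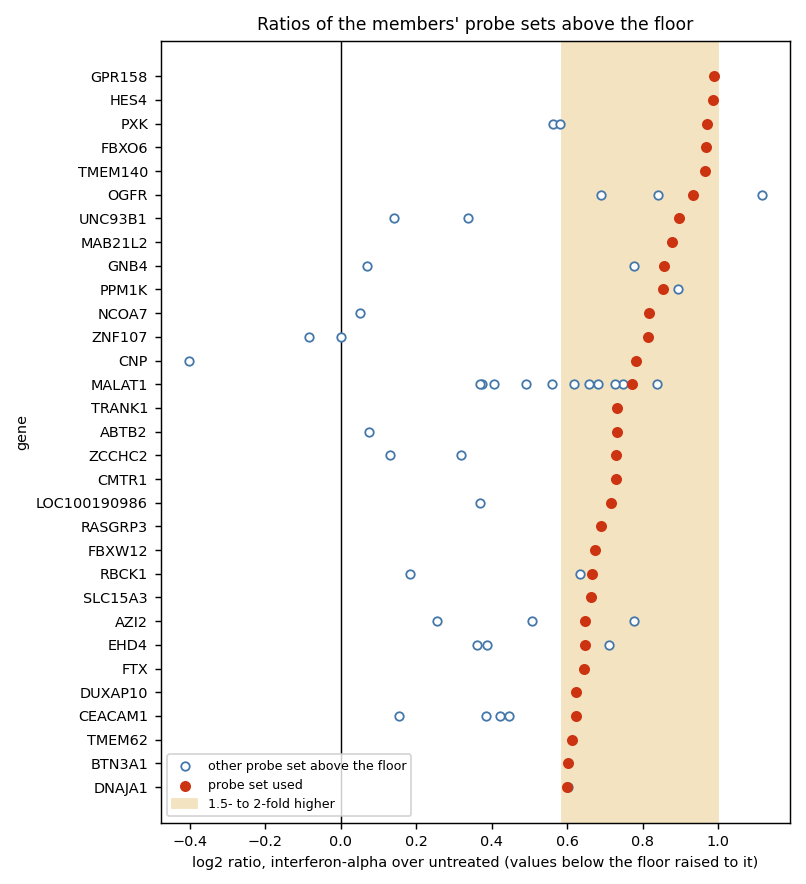
Log2 ratio (interferon-alpha over untreated, values below the floor raised to it) of every probe set above the floor for the 31 members; red points are the probe sets used and open blue points the other 42, and the shaded band marks 1.5-fold to 2-fold. MALAT1 has 12 points, all to the right of 0, while CNP has a point at -0.40 and ZNF107 points at 0.00 and -0.09.

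Some probe sets used can read more than 1 transcript. By the array's naming, 6 members were read by a probe set of type _x_at, which may cross-hybridise with unrelated sequences (HES4, OGFR, ZNF107, FBXW12, DUXAP10 and BTN3A1). A further 9 were read by type _s_at, whose probes are shared by transcripts, often of 1 family. Values of ZNF107, BTN3A1 and DUXAP10, which have near relatives, are uncertain for this reason.

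Position on the chromosome was also independent of the rule. Genes with a named probe set were ordered along each chromosome of GRCh38.p14, and the gene on either side of each member was taken. HES4 lies next to ISG15, a ubiquitin-like modifier with a log2 ratio of 4.57. PPM1K lies next to HERC6, a ligase of the HERC family with a log2 ratio of 1.88. The other 50 neighbours above the floor had log2 ratios between -0.28 and 0.40. Thus 2 of 31 members (6.45%) lay beside a gene at least 2-fold higher, as did 6 of the 181 weaker responders (3.31%), 57 of 12976 counted genes with a log2 ratio under 0.32 (0.439%) and 14 of the 57 genes (24.6%) at least 2-fold higher. The promoter windows of HES4 and PPM1K did not hold the ISRE core. Counts of 2 genes are small and no test was made. As with the motifs, the members lack the 12 genes set aside by name, while the groups beside them lack none.

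The range described here lay in the upper part of the list of interferon-stimulated genes used here. That list does not hold ISG15, USP18, HERC5 or DTX3L, and only 8 of the 57 genes at least 2-fold higher are on it. Its counts and median therefore describe the listed genes and not interferon-stimulated genes at large. Of 139 genes listed 128 had a named probe set and 108 of them exceeded the floor. Of these 8 were at least 2-fold higher, 17 were 1.5-fold to under 2-fold higher (the 16 members and ADAR), 18 were weaker responders, and 65 had log2 ratios within 0.32 of 0. None was lower by 0.32 or more. Of all counted genes 1.36% were weaker responders. The list's median log2 ratio was 0.24. It was chosen with earlier results of these data known and is no independent evidence. Other fixed lists held no member: 10 counted immediate early genes had a median log2 ratio of 0.18 and a highest value of 0.34, 9 counted p53 targets 0.11 and 0.23, and 9 counted genes of growth factor and TGF-beta signalling 0.12 and 0.27.

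The edges of the range cut through a gradual series. Just below 1.5-fold were DDX60 (at least 1.49-fold, from 12.5 untreated to 72.1), CHROMR (1.47-fold) and DNPEP (1.47-fold). Just inside were PSME1 (1.51-fold, set aside by name), DNAJA1 and BTN3A1, and the next member was TMEM62. Just under 2-fold were ADAR (1.99-fold, set aside by name), GPR158 and HES4. Just over it were LGALS3BP (at least 2.04-fold), TAP2 (2.04-fold) and TRIM5 (2.07-fold).

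Membership and, for CNP, direction depended on the processing. Across 15 alternative settings of the floor, the scaling between arrays, the probe set and the gene names, 0 members stayed in the range in every one. CMTR1, FBXO6, GNB4, PPM1K and TMEM140 stayed in 14 of 15. The exception for each was centring on the hybridisation controls, bacterial and phage transcripts added to the labelled sample, which lowers a log2 ratio by 0.43 where both values lie well above the floor and by less where they do not (GPR158 went from 0.99 to 0.77). GPR158 stayed in 8 and ranged from 0.38 to 1.58, as its untreated value was below the floor. In CNP the ratio reversed to -0.40 when probe sets of types _x_at and _s_at were left out. Under that setting MALAT1 had 0.49, below the range, and 8 further members had a log2 ratio of 0. In BTN3A1, DUXAP10, FBXW12, MAB21L2, RASGRP3, TMEM62 and ZCCHC2 neither value of the probe set then used reached the floor, and in ZNF107 it had equal values. ZNF107 was also at 0 with the probe set of highest untreated intensity and with the median over probe sets.

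**Figure D5:**
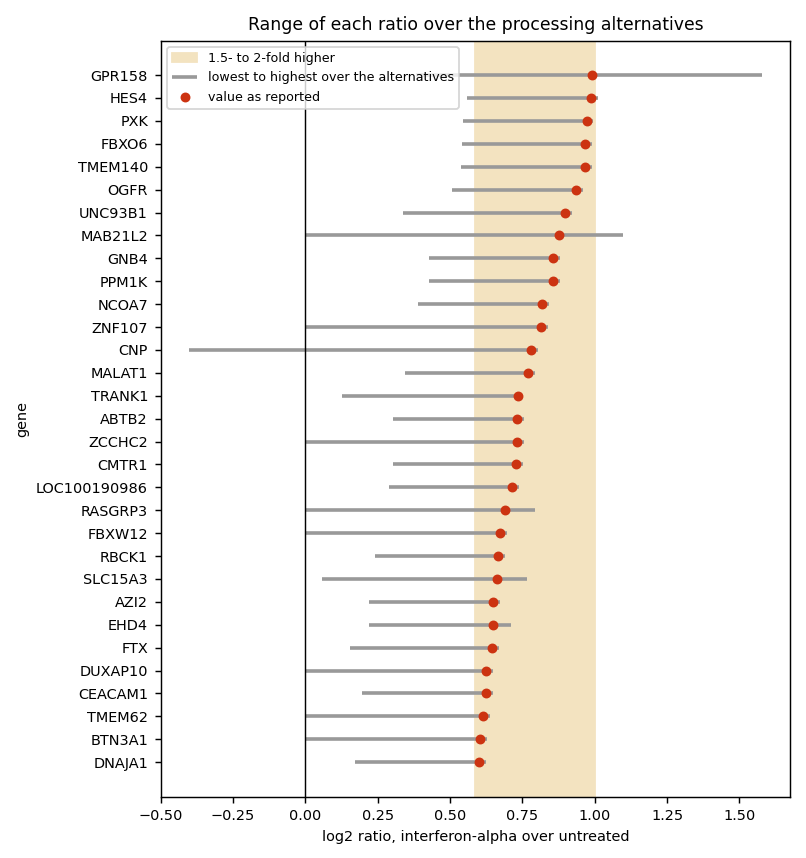
For each member, the log2 ratio as reported (red) and its lowest to highest value (grey) over the alternative settings; the shaded band marks 1.5-fold to 2-fold. The lower ends lie outside the band for all 31 genes, CNP alone crosses 0 (to -0.40), 8 others reach 0, and GPR158 reaches 1.58.

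The labelled cell line and the arrays were checked for the facts that bear on these values. Of 10 hepatocyte and hepatoma markers 9 had a named probe set, and all 9 were bright, at 2999.9 to 12212 untreated and 3222.5 to 14588 with interferon. Above the floor on an array were 3 of 5 leukocyte markers (highest 2064 untreated and 2271 with interferon), 2 of 3 endothelial markers (highest 158 and 152), 2 of 3 stellate and fibroblast markers (highest 176 and 187) and 3 of 3 cholangiocyte markers (highest 1299 and 1430.0). Below it on both were PTPRC, CD3E, CDH5 and ACTA2. Summed leukocyte markers were 2301 untreated and 2476 with interferon, endothelial 272 and 245, stellate and fibroblast 338 and 346, and cholangiocyte 2772 and 2884, and their part in the members' ratios was not tested. The 18 probe sets of the hybridisation controls were brighter on the interferon array by a median log2 of 0.43, and the part of that in the members' ratios was not tested.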

How the data were processed

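Cultures of Huh-7 cells, untreated or given interferon-alpha, were measured with 1 array per condition and labelled RNA made from 6 µg of total RNA. The table deposited by the authors holds linear intensities of 54675 probe sets made with GCOS, per the submitters' processing notes. For its version, background correction, probe set summary and scaling, the entry is: not given in the sources used here. Medians of the 54613 probe sets other than controls were 48.84 and 48.04. Of these, 41091 had 1 gene in the platform annotation, 1801 several and 11721 none, and symbols were updated through the gene ID. Only single-gene probe sets were used, 1 per gene (19775 genes). The floor was the 50th percentile of all values. Ratios, motif matches and neighbours were computed in Python 3.11.15 with numpy 2.4.6 and pandas 2.3.3, and the selection was tested on simulated data. All members are named, with the genes nearest both thresholds and genes of 9 lists. The members and lists were chosen with earlier results of these data known. Alternatives covered the floor, pseudocounts, scaling, probe set choice and symbols. The number of arrays limits the precision.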

Additional observations from a re-analysis of the deposited data

Results flagged for a closer look

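Among probe sets outside the gene-level comparison, some had ratios in the same range. The annotation names no gene for 3079 of the probe sets above the floor. Of these 31 were higher with interferon by 1.5-fold to under 2-fold, 3 were lower by as much and 14 were at least 2-fold higher. Of 1156 probe sets with several genes, 6 were higher by 1.5-fold to under 2-fold, 0 were lower by as much and 2 were at least 2-fold higher. For comparison, counted by gene, 43 of 13269 (0.324%) were higher by 1.5-fold to under 2-fold and 11 (0.0829%) were lower by as much. At least 2-fold higher were 57 genes (0.43%). They are given because no comparison above uses them.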

How the results depend on the processing

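With 31 genes as reported, the number of genes in the range was 22 to 37 under 14 alternatives, and 11 after centring on the hybridisation controls. That centring left 2 of the 31 members in the range and moved their median log2 ratio from 0.73 to 0.34. It moved the median of all counted genes from 0.03 to -0.38 as well, so that the members' median lay 0.72 above it, against 0.70 as reported. Members in the range numbered 20 with the median over a gene's probe sets. Without _x_at and _s_at probe sets they numbered 18 of the 28 that had a value. HES4, OGFR and UNC93B1 had no probe set of another type. In that setting CNP had a log2 ratio of -0.40, the 1 value that reversed. Members in the range numbered 21 with the floor at the 60th percentile, 23 with a common trimmed mean and 27 with quantile normalization or lowess. Under the other settings they numbered 26 to 31. The median of the members lay between 0.63 and 0.76 in the 14. Of 462 member values under alternatives, 388 moved by less than 0.13, the robust SD of log2 ratios between the arrays, and 74 by more, CNP included. A log2 ratio of 0 was reached by 8 members without _x_at and _s_at probe sets and by ZNF107 under 2 other probe set choices. Choosing the probe set after the floor, an alternative chosen after seeing the data, added KLHDC7B. The cause of these shifts was not tested. No paired analysis was possible because each condition has 1 array. Signals near the floor limit the ratios of the 8 dim members.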

Other observations

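The deposited values carry a trace of how they were made. On both arrays 2361 of the 54675 probe sets (4.32%) had exactly the same value as deposited, and a further 1785 differed by a whole multiple of 0.5 to within 1e-06 units. Among the 91 probe sets of the members, 1 of ZNF107 was equal on both arrays. A further 5 differed by such a step, among them the one used for NCOA7 (446 units) and 1 of PPM1K (131 units). How these steps arose was not tested.

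The members' differences were unequal on the linear scale. Their intensities were higher by 7278 units in sum, of which DNAJA1 gave 18.7% and MALAT1 12.6%, although DNAJA1 had the lowest ratio of the 31. Intensities of different probe sets are not on a common scale per transcript, so these shares describe array signal and not transcript numbers.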
